A study of Mus musculus with 2 samples.

Results

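Heterotrimeric G proteins carry signals from membrane receptors to enzymes and channels inside the cell. The alpha subunit of each trimer binds GTP and decides which effector is reached, so the cell's set of G alpha genes sets which pathways its receptors can use. In fibroblasts these pathways serve lysophosphatidic acid, thrombin, endothelin and prostaglandins, and act on cell shape, migration and growth. Gi family subunits lower adenylyl cyclase activity, Gs and Golf raise it, Gq and G11 act on phospholipase C beta, and G12 and G13 act on exchange factors for the small GTPase RhoA.

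The 10 G alpha genes described here are Gnai1, Gnai2, Gnai3, Gnao1 and Gnaz of the Gi/o/z class, Gnaq and Gna11 of the Gq/11 class, Gna12 and Gna13 of the G12/13 class, and Gnal, which encodes Golf. They were chosen by family, and the family itself was chosen because Gnai1 was already known to have one of the lowest ratios of Dnmt1-/- to Dnmt1+/+ in these data. All 10 were found by symbol among the 29126 entries of the deposited gene table. Since the choice used the difference between the genotypes, that difference is given below as a description of these libraries, without a test.

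Messenger RNA was sequenced in mouse embryonic fibroblasts (MEFs), with 1 library of Dnmt1+/+ cells and 1 library of Dnmt1-/- cells. Dnmt1 encodes the main maintenance DNA methyltransferase, and the cells called Dnmt1-/- are homozygous for a hypomorphic allele of it (Dnmt1 n/n). Both lines are also homozygous null for trp53, so the control is a trp53-/- line that keeps wild-type Dnmt1. The strain is given as unknown, both lines came as a gift from another laboratory, and no age, sex or number of embryos is given. Each gene had 1 value per library in RPKM, a read number scaled to transcript length and to the mapped reads of the library, which allows levels of different genes to be set side by side. As each genotype has only 1 library, the spread between cultures is unknown, and all differences are between these 2 libraries.

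The targeted gene, Dnmt1, was listed at 65.2 RPKM in Dnmt1+/+ and 14.5 RPKM in Dnmt1-/- (4.49-fold lower). Trp53 was listed at 18.6 and 19.9 RPKM, and whether those reads come from outside the deleted part was not tested. Actb, a cytoskeletal gene often used as a control, was 1759 and 3779 RPKM, and Gapdh was 58.4 and 59.5 RPKM. All 8 fibroblast markers were above 1 RPKM in one library or the other, led by Vim at 2269 and 1873 RPKM. Of these 8, 3 were more than 2-fold lower in Dnmt1-/-, namely Thy1 (4.84 and 0.129 RPKM), Fn1 (663.7 and 235.5 RPKM) and Col1a2 (1241 and 475.9 RPKM), and 2 more than 2-fold higher, namely S100a4 (289.6 and 1262 RPKM) and Pdgfra (6.95 and 18.7 RPKM). Markers of other cell types were low: their summed levels in Dnmt1+/+ and Dnmt1-/- were 19.3 and 12.9 RPKM for 7 neuron markers found of 8. The sums were 2.18 and 12.9 RPKM for 5 blood cell markers, 0.363 and 2.19 RPKM for epithelial, 0.461 and 0.679 RPKM for endothelial, and 0.340 and 0.233 RPKM for muscle markers. The only epithelial entry kept, a joint entry of Krt14 and Krt17, was 0.0349 and 1.46 RPKM, so it was kept through the library where it is high. Krt8 and Krt18 were also higher in Dnmt1-/-, and Epcam, Cdh1 and Krt5 lower, all under 1 RPKM in both libraries. All 3 blood cell markers kept were more than 2-fold higher in Dnmt1-/-, with Csf1r at 0.0702 and 6.08 RPKM, Cd68 at 0.596 and 3.63 RPKM and Cd14 at 1.51 and 3.23 RPKM. Csf1r and Cd68 reached 1 RPKM in Dnmt1-/- only, so they were kept through the library where they are high. The other 2 blood cell markers, Ptprc and Emr1, were listed at 0 in both libraries. Of all entries kept by the rule given below, 10.9% were more than 2-fold lower in Dnmt1-/- and 8.47% more than 2-fold higher. The part of cell composition in the values below was not tested, and in bulk RNA fewer cells of a type and less RNA per cell cannot be told apart.

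The ends of the coding sequences are shown because the last residues of a G alpha subunit contact the receptor and hold the cysteine that pertussis toxin modifies in Gi1, Gi2, Gi3 and Go. Each line gives the last 30 coding bases before the stop codon, read on the gene's own strand from the mouse genome NCBIM37 (mm9), with the fourth codon from the end in capitals.
Gnai1: aagaataacctaaaagacTGTggtctcttc
Gnai2: aagaacaacctgaaggacTGTggcctcttc
Gnai3: aaaaacaacttaaaggaaTGTgggctttat
Gnao1: gccaacaatctccggggcTGCggcttgtac
Gnaz: cagaacaatctcaagtacATCggcctttgc
Gnaq: cagctgaacctgaaggagTACaatctggtc
Gna11: cagctgaacctgaaggagTACaacctggtg
Gna12: caggagaacctgaaagacATCatgctgcag
Gna13: catgacaacctgaagcagCTCatgctgcag
Gnai1, Gnai2, Gnai3 and Gnao1 have TGT or TGC, the codons of cysteine, at this place. Gnaz has ATC, a codon of isoleucine, although it belongs to the same class. The Gnai1 bases lie at chr5:17772840-17772869, those of Gnai2 at chr9:107517969-107517998 and those of Gnai3 at chr3:107912343-107912372, all 3 on the minus strand and in the coding part of the last coding exon.

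The bases directly before the start of transcription are shown for Gnai1 and Gnai3 because these genes had neighbouring levels in Dnmt1+/+ but not in Dnmt1-/-. CG, the dinucleotide at which Dnmt1 maintains methylation where it is present, is in capitals, and it reads the same on both strands. The capitals mark sequence only, not methylated bases. The sequences are from RefSeq (GRCm38.p6), 250 bases each on the gene's own strand, for Gnai1 at chr5:18360414-18360663 and for Gnai3 at chr3:108146153-108146402.
Gnai1: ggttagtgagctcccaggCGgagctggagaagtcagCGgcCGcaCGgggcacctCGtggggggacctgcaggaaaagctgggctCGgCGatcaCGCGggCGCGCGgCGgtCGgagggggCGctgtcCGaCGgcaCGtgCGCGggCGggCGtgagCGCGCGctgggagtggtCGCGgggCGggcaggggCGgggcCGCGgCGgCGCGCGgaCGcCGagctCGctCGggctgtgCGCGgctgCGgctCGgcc
Gnai3: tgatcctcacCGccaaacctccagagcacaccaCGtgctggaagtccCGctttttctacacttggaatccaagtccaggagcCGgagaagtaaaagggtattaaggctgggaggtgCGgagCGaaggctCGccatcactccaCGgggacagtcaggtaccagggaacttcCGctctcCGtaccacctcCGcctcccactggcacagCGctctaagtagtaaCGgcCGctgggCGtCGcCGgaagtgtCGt
The Gnai1 window holds 43 CG, a number reached by 0.712% of the 32851 RefSeq promoter windows of the same length, whose median is 6. The Gnai3 window holds 18 CG, reached by 21.7% of them. Promoter windows were found for 7 of the 10 genes, and Gna11 (38 CG), Gnaq (37), Gnao1 (36) and Gna13 (33) were nearer to Gnai1 than to Gnai3, with Gna12 at 20. The 6 genes with a window other than Gnai1 were within 2-fold between the libraries (values below). No window was found for Gnai2, which was within 2-fold, or for Gnaz and Gnal, whose values were 9.69-fold and 2.23-fold lower in Dnmt1-/-. A relation between the number of CG and the levels was not tested. Methylation of the bases shown was not analysed here.

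The largest difference in the family was at Gnai1, which encodes the alpha subunit of Gi1. Gnai1 (chr5:17770953-17866231, minus strand) was listed at 62.1 RPKM in Dnmt1+/+ and at 0.0317 RPKM in Dnmt1-/-. Of the 11244 entries kept, Gnai1 itself included, 89.6% were at or below its level in the first library and 0.738% in the second. An entry was kept if the authors' program gave it the status OK, it had a gene symbol and it reached 1 RPKM in at least one library. Without a pseudocount the difference was 1960-fold, and on the log2(RPKM + 0.1) scale used for all changes below, which understates changes of low values, it was -8.88. No counts come with these values, so no error is given for a value as low as 0.0317 RPKM and the fold is only its quotient.

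**Figure D1:**
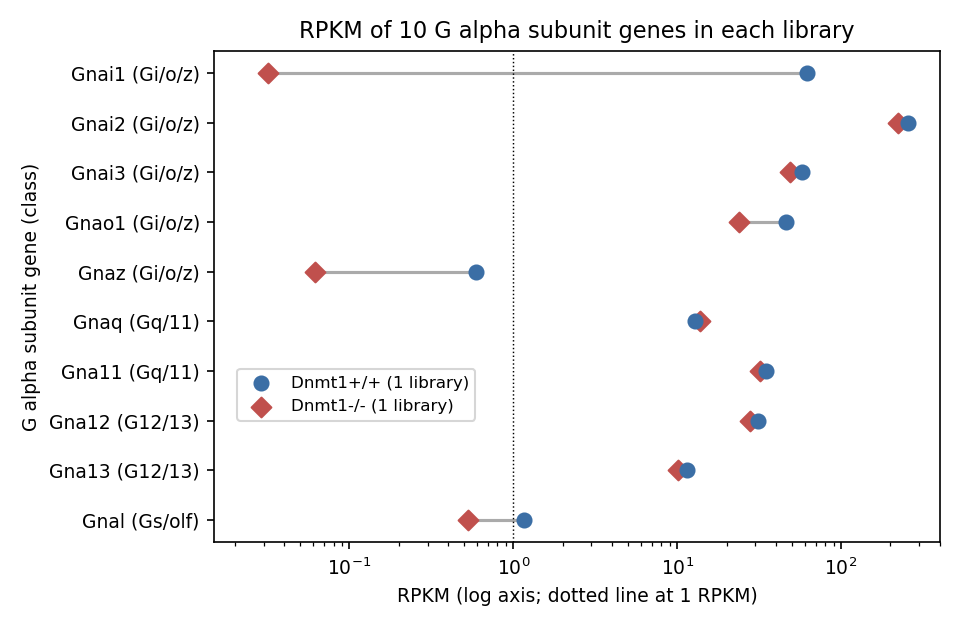
RPKM (log axis) of the 10 G alpha genes in the Dnmt1+/+ library (circles) and the Dnmt1-/- library (diamonds), 1 library each, with a grey line joining both values of a gene and a dotted line at 1 RPKM. Gnai1 runs from 62.1 to 0.0317 RPKM, while Gnai2, Gnai3 and the Gq/11 and G12/13 genes have nearly overlapping points.

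Gnai2 and Gnai3, the closest relatives of Gnai1 among the 10 by coding sequence, were within 2-fold between the libraries. Gnai2 (chr9:107516430-107537723, minus strand), the most abundant of the 10 genes in both libraries, was 254.9 RPKM in Dnmt1+/+ and 221.2 RPKM in Dnmt1-/-, a ratio of 0.868. Gnai3 (chr3:107910217-107949032, minus strand) was 57.8 RPKM in Dnmt1+/+ and 49.1 RPKM in Dnmt1-/-, a ratio of 0.849. Their log2 changes of -0.20 and -0.24 lay near the median change of all entries kept, -0.14, and within its quartiles of -0.56 and 0.27. In Dnmt1+/+ Gnai1 and Gnai3 were thus at similar levels, and in Dnmt1-/- only Gnai3 of that pair was above 1 RPKM.

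Reads could in principle have been shared between such related genes. The Gnai1 coding sequence, 1065 bases in 8 coding exons, was identical to that of Gnai2 at 78.7% of aligned bases and to that of Gnai3 at 78.2%, against 69.5% for Gnao1 and 67.5% for Gnaz. At the read length of 50 bp, none of the 3144 different 50-base stretches of the annotated Gnai1 transcripts was found in a protein-coding transcript of another gene. The same count was 0 for Gnai2, Gnai3, Gnao1, Gnaz, Gna11 and Gna12. It was 9 of 5588 for Gnaq and 9 of 6356 for Gna13, and none of the shared stretches were shared with another of the 10 genes. Only exact matches to annotated protein-coding transcripts were counted. Alignments with mismatches, pseudogenes, noncoding transcripts and the rest of the genome were not covered, so whether reads were shared was not tested.

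Summed over Gnai1, Gnai2 and Gnai3, the Gi level was 374.7 RPKM in Dnmt1+/+ and 270.3 RPKM in Dnmt1-/-, a ratio of 0.721. Gnai1 made up 16.6% of that sum in Dnmt1+/+ and 0.0117% in Dnmt1-/-. The Gnai2 share was 68.0% and then 81.8%, and the Gnai3 share 15.4% and then 18.1%. Neither relative was higher in Dnmt1-/-, so the larger shares came with a smaller sum.

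Gnao1 and Gnaz, the other members of the class, are best known from neurons. Gnao1 (chr8:96334455-96493288, plus strand), which encodes Go, was listed at 46.1 RPKM in Dnmt1+/+ and 23.9 RPKM in Dnmt1-/-, 1.92-fold lower. With a log2 change of -0.94 it was the gene just within the 2-fold limit used here. Gnaz (chr10:74420222-74495331, plus strand) was listed at 0.594 and 0.0613 RPKM, under 1 RPKM in both libraries, so it was not kept, although its values differed 9.69-fold. Among neuron markers, which could move with these genes, Tubb3 was 16.9 RPKM in Dnmt1+/+ and 12.9 RPKM in Dnmt1-/-, and Stmn2 was 2.19 and 0.0108 RPKM. Syt1 (0.144 and 0.0424 RPKM) and Elavl3 (0.00351 and 0.000798 RPKM) were also lower in Dnmt1-/-, but under 1 RPKM in both libraries. The other markers found, Snap25, Rbfox3 and Elavl4, were listed at 0 in both libraries. Whether neurons had a part in these values was not tested.

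The genes of the Gq/11 class differed little between the libraries. Gnaq (chr19:16207181-16462865, plus strand) was 12.9 RPKM in Dnmt1+/+ and 13.9 RPKM in Dnmt1-/-, and was the only one of the 10 genes with the higher value in Dnmt1-/-. Gna11 (chr10:80991477-81007791, minus strand) was 35.0 and 31.8 RPKM. The sequences of these 2 genes were the most alike of all pairs, with 80.5% of aligned coding bases identical.

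The genes of the G12/13 class were also close in both libraries. Gna12 (chr5:141234414-141306385, minus strand), which lies on the same chromosome as Gnai1, was 31.0 RPKM in Dnmt1+/+ and 27.9 RPKM in Dnmt1-/-. Gna13 (chr11:109216092-109262683, plus strand) was 11.5 and 10.1 RPKM. The log2 changes of Gna12 and Gna13 were -0.15 and -0.18, against 0.11 for Gnaq and -0.14 for Gna11.

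Gnal, which encodes the Gs-like alpha subunit first known from olfactory neurons, was low in both libraries. Gnal (chr18:67247990-67405484, plus strand) was listed at 1.17 RPKM in Dnmt1+/+ and 0.526 RPKM in Dnmt1-/-, 2.23-fold lower, with a log2 change of -1.02 just past the 2-fold limit. Relative to the median of all entries its change was -0.88 and within that limit, so its call depends on the scaling. Of its 7867 different 50-base stretches, 37 were found in other protein-coding genes. Gnas, the gene for the widely used Gs alpha subunit, had the status FAIL and was listed at 0 in both libraries, so these data give no usable value for it.

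Of the 10 genes, 9 were kept, and 2 of them (Gnai1 and Gnal) were more than 2-fold lower in Dnmt1-/-, beside 10.9% of all entries kept. None was more than 2-fold higher, beside 8.47% of all entries kept, and the other 7 lay within 2-fold. The median log2 change of the 9 genes was -0.20. Gnai1 and Gnal reached 1 RPKM in Dnmt1+/+ only, so they were kept through the library where they are high. The genes were chosen with these differences known, and nothing is read from the counts.

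**Figure D2:**
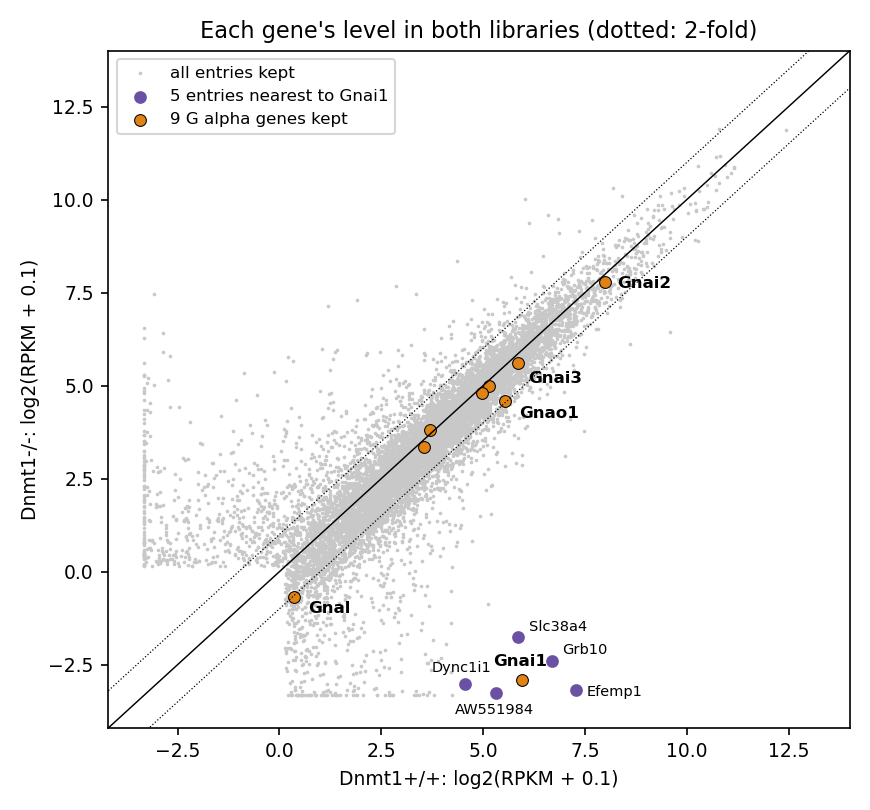
Level of each entry kept (grey) in Dnmt1+/+ against its level in Dnmt1-/-, both as log2(RPKM + 0.1), with the line of equal levels solid and 2-fold dotted. The 9 G alpha genes kept are orange and the 5 entries nearest to Gnai1 purple; Gnai1 lies far below the line, and the other 8 lie within the 2-fold lines or, for Gnal, at their edge.

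Ordered by level in Dnmt1+/+, the genes ran from Gnai2 through Gnai1, Gnai3, Gnao1, Gna11, Gna12, Gnaq, Gna13 and Gnal to Gnaz. In Dnmt1-/- the order was Gnai2, Gnai3, Gna11, Gna12, Gnao1, Gnaq, Gna13, Gnal, Gnaz and Gnai1. Gnai1 thus moved from the second place to the last, and Gnao1 moved below Gna11 and Gna12. Without replicates it cannot be said which neighbours in these orders differ beyond their spread.

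The sum over all 10 genes was 513.0 RPKM in Dnmt1+/+ and 378.5 RPKM in Dnmt1-/-, 26.2% lower. Gnas, which has no usable value here, is not in this sum, and Gnal alone stands for the Gs class. The shares below are thus of these 10 genes, not of all G alpha RNA in the cells. The Gi/o/z class made up 82.1% of the sum in Dnmt1+/+ and 77.7% in Dnmt1-/-. Within the class, the share of Gnai2 in the sum of all 10 genes was 49.7% and then 58.4%, that of Gnai1 12.1% and then 0.00837%, and that of Gnao1 8.98% and then 6.32%. The Gq/11 class had 9.33% and then 12.1%, and the G12/13 class 8.29% and then 10.1%. Their sums were nearly level, with ratios of 0.954 for Gq/11 and 0.895 for G12/13 against 0.698 for the Gi/o/z class.

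**Figure D3:**
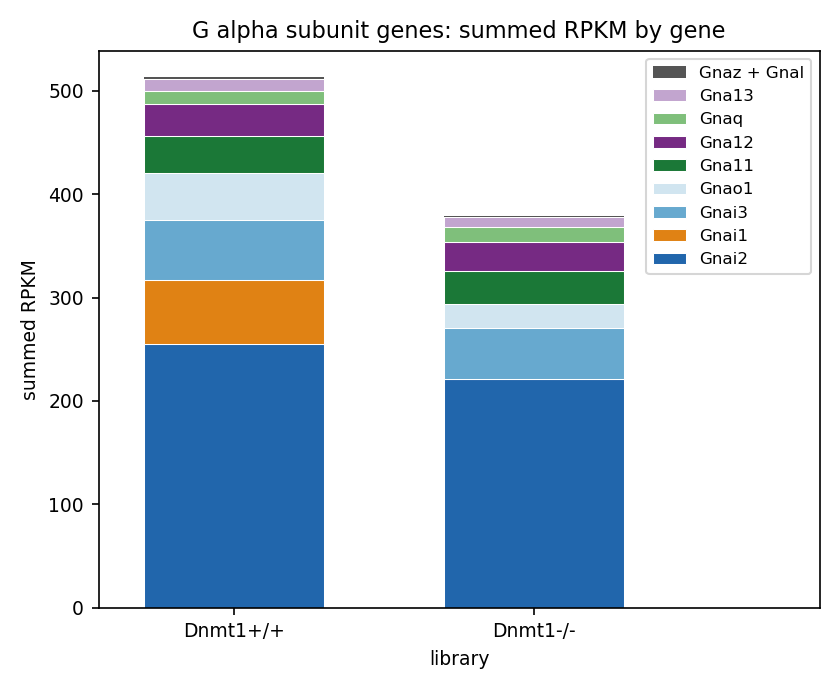
Summed RPKM of the 10 G alpha genes in each library (1 library per bar, no error bar possible), stacked by gene, with Gnaz and Gnal joined. The bar is 513.0 RPKM high in Dnmt1+/+ and 378.5 RPKM in Dnmt1-/-, and the orange Gnai1 block is visible only in Dnmt1+/+. Gnas, without a usable value, is not included.

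Gnai1 was chosen for its large fall, so its place among well-expressed genes follows from that choice and is given as description only. Of the 1171 entries at or above the Gnai1 level in Dnmt1+/+, 3, with Gnai1 among them, were under 1 RPKM in Dnmt1-/-. All 3 were also under 0.1 RPKM. Besides Gnai1 these were Efemp1, a gene for an extracellular matrix glycoprotein, at 154.7 and 0.00975 RPKM, and Grb10, an imprinted gene for an adaptor of growth factor receptors, at 102.7 and 0.0907 RPKM. Both also had lower log2 changes than Gnai1, at -10.46 and -9.07, so Gnai1 held the third place from the bottom. The limit is the level of Gnai1 itself, and Slc38a4, at 58.1 and 0.195 RPKM, lay just below it.

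The entries with the pair of levels most like that of Gnai1 were picked by the straight-line distance between pairs of log2(RPKM + 0.1) values, over 2 libraries. The nearest was AW551984 (39.9 and 0.00466 RPKM, distance 0.716), followed by Grb10 (0.901), Slc38a4 (1.17), Efemp1 (1.34) and Dync1i1 (1.41). Slc38a4, an imprinted gene for an amino acid transporter, was 58.1 and 0.195 RPKM, and Dync1i1, a gene for a dynein intermediate chain, was 23.4 and 0.0229 RPKM. Likeness over 2 libraries is a description of level alone.

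The genes nearest to Gnai1 on either side were low in both libraries. On its downstream side, 244.6 kb away, lies Gnat3, the gene for the taste cell subunit gustducin, which was listed at 0 in both libraries. An entry without a symbol at the Gnat3 locus (chr5:17468388-17526328) was 2.94 RPKM in Dnmt1+/+ and listed at 0 in Dnmt1-/-. On the other side lies Magi2, a scaffold gene 866.6 kb away, at 0.420 and 0.920 RPKM. Farther on the Gnat3 side, Sema3c, a gene for a secreted guidance cue, was 4.26 and 6.99 RPKM at a distance of 534.9 kb. Another entry without a symbol on that side (chr5:16486914-16487108), 1284 kb from Gnai1, was 41.3 RPKM in Dnmt1+/+ and 8.97 RPKM in Dnmt1-/-, a log2 change of -2.19. Beyond Magi2, Phtf2 was 3.15 and 3.12 RPKM at a distance of 2398 kb. Entries without a symbol were listed on the Gnat3 side only, so none is described for the Magi2 side, whatever their values.

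Several G alpha genes lie beside a relative in the genome, and in each such pair the neighbour was low or at 0. Gnat2, the cone transducin gene 6.01 kb from Gnai3, was 2.66 RPKM in Dnmt1+/+ and 1.58 RPKM in Dnmt1-/-. Gna15, 4.51 kb from Gna11, was 0.0417 and 0.00747 RPKM, and Gna14, 47.3 kb from Gnaq, was 0.215 and 0.0427 RPKM; both encode Gq class subunits. Gnat1, the rod transducin gene 39.1 kb from Gnai2, was listed at 0 in both libraries. Beside Gnai2 also lies Sema3b, another guidance cue gene, at 1.23 and 10.1 RPKM, while Gnai2 itself stayed within 2-fold.

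For 5 of the 10 genes another entry was given the same locus, and since the use of strand in the counting is not stated, their values are less certain. These are Gnao1 with 4930488L21Rik, Gnaz with Rtdr1, Gnaq with E030024N20Rik, Gna13 with Gm11696, and Gnal with Chmp1b and Mppe1. The entry E030024N20Rik was 31.6 RPKM in Dnmt1+/+ and 34.0 RPKM in Dnmt1-/-, above Gnaq itself. No entry shared the locus of Gnai1, Gnai2, Gnai3, Gna11 or Gna12.

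A G alpha subunit works with beta and gamma subunits, receptors, effectors and regulators. Of 128 such genes on 12 lists, which include the 6 other G alpha genes, 125 were found in the table and 66 were kept. Of these, 11 were more than 2-fold lower in Dnmt1-/- (16.7%, against 10.9% of all entries kept) and 6 more than 2-fold higher (9.09%, against 8.47%). Their median log2 change was -0.20, against -0.14 for all entries. The lists carry no test. A gene under 1 RPKM in one library was kept only through the library where it is high. Among the listed genes past 2-fold this holds for Gng11, Gng2, Pde8b, Adrbk2, Rap1gap and Gpsm3, and for the 3 receptor genes given below.

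Among the partners of G alpha in the trimer, 2 of 7 gamma subunit genes kept were more than 2-fold lower in Dnmt1-/-. This was 28.6%, against 10.9% of all entries kept. None was more than 2-fold higher, against 8.47% of all entries kept. Gng11 was 18.3 RPKM in Dnmt1+/+ and 0.601 RPKM in Dnmt1-/-, a log2 change of -4.71. Gng2 was 8.91 and 0.868 RPKM, a log2 change of -3.22. The other 5 gamma genes kept were within 2-fold, among them Gng12 at 18.7 and 35.3 RPKM. All 4 beta subunit genes kept were within 2-fold, with Gnb1 at 177.0 and 96.7 RPKM and Gnb2 at 114.4 and 124.3 RPKM.

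Genes that make, break down or respond to cyclic AMP, the messenger that Gi lowers, differed in both directions. Of 5 adenylyl cyclase genes kept, Adcy1 (1.57 and 4.65 RPKM) and Adcy7 (3.68 and 7.68 RPKM) were more than 2-fold higher in Dnmt1-/-. This was 40% of the list, against 8.47% of all entries kept. None was more than 2-fold lower, against 10.9%. The most abundant cyclase gene kept, Adcy6, was 17.6 and 12.7 RPKM. Of 6 phosphodiesterase genes kept, 3 were more than 2-fold lower (50%, against 10.9% of all entries kept) and none more than 2-fold higher. The lower genes were Pde8b (3.34 and 0.0747 RPKM), Pde4b (4.76 and 1.55 RPKM) and Pde8a (8.07 and 3.61 RPKM). The other 3 were within 2-fold. Among them Pde7a, the most abundant, was 10.1 and 6.71 RPKM, while Pde4a had the higher value in Dnmt1-/- (5.26 and 9.75 RPKM). The median log2 change was 0.85 for the cyclases and -0.86 for the phosphodiesterases, against -0.14 for all entries. Both lists are short and were not tested. Among 7 genes for protein kinase A subunits and other cyclic AMP effectors, Prkar1b was higher (1.62 and 8.19 RPKM) and Prkar2b lower (44.7 and 15.6 RPKM). Each was 14.3% of the list, against 8.47% of all entries higher and 10.9% lower. Prkar1a, the most abundant, was 136.0 and 195.9 RPKM.

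**Figure D4:**
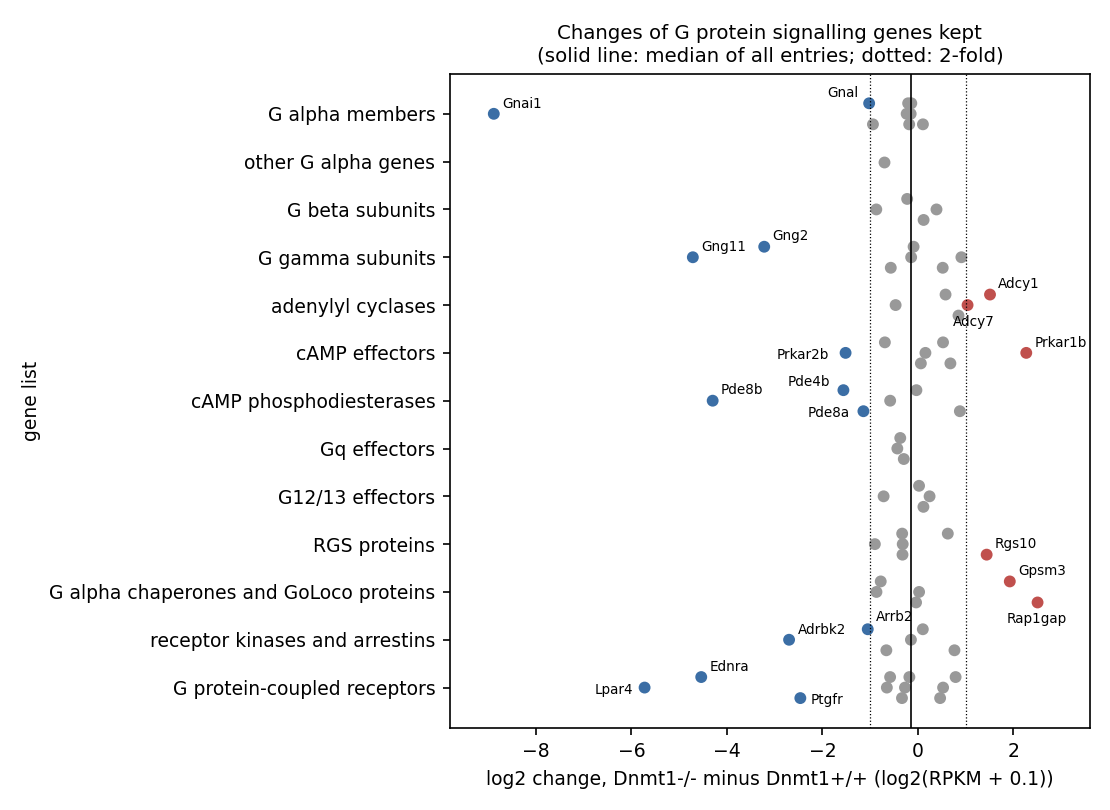
Log2 change (Dnmt1-/- minus Dnmt1+/+, of log2(RPKM + 0.1)) of the 9 G alpha genes and 66 pathway genes kept, 1 point per gene and 1 line per list, blue where more than 2-fold lower and red where more than 2-fold higher. The vertical solid line is the median of all entries, -0.14; Gnai1 at -8.88 is farthest to the left, followed by Lpar4 at -5.72.

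The effectors kept for the Gq class and for G12 and G13 stayed within 2-fold, as did the G alpha genes of these classes. All 3 phospholipase C beta genes kept were within 2-fold, with Plcb3 at 38.1 RPKM in Dnmt1+/+ and 31.1 RPKM in Dnmt1-/-. All 4 genes acting downstream of G12 and G13 were also within 2-fold, with Arhgef1 at 19.3 and 22.9 RPKM.

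Regulators that act on G alpha itself were mostly within 2-fold or higher. Of 6 RGS genes kept, whose products speed up GTP hydrolysis, Rgs10 was higher (4.33 and 11.9 RPKM) and Rgs19, the most abundant, was 18.7 and 14.9 RPKM. Among 6 chaperone and GoLoco genes kept, Rap1gap (0.664 and 4.25 RPKM) and Gpsm3 (0.423 and 1.89 RPKM) were more than 2-fold higher. The shares higher were 16.7% of the RGS genes and 33.3% of the chaperone and GoLoco genes, against 8.47% of all entries kept. In neither list was a gene more than 2-fold lower, against 10.9% of all entries kept. Gpsm2, whose product binds Gi alpha at the cell cortex, was 20.3 and 20.6 RPKM.

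Of 11 receptor genes kept, 3 were more than 2-fold lower (27.3%, against 10.9% of all entries kept). None was more than 2-fold higher, against 8.47% of all entries kept. The 3 lower genes reached 1 RPKM in Dnmt1+/+ only, so they were kept through the library where they are high. Lpar4, a lysophosphatidic acid receptor gene, was 5.19 RPKM in Dnmt1+/+ and listed at 0 in Dnmt1-/-. Ednra, the endothelin A receptor gene, was 3.37 and 0.0494 RPKM, and Ptgfr, the prostaglandin F receptor gene, was 2.78 and 0.423 RPKM. F2r, the thrombin receptor gene and the most abundant, was 26.8 and 38.7 RPKM. Among 6 receptor kinase and arrestin genes kept, Adrbk2 (1.22 and 0.104 RPKM) and Arrb2 (16.0 and 7.68 RPKM) were lower, and Grk6 was 30.6 and 32.9 RPKM. The share lower was 33.3%, against 10.9% of all entries kept, and none was more than 2-fold higher, against 8.47%.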

How the data were processed

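Strand-specific libraries were sequenced with 50 bp reads from 1 culture sample per genotype. The deposited RPKM values, 1 column per library, come from TopHat alignments to mm9, followed by Cufflinks and Cuffdiff, all run by the authors. The submitters' notes name these tools, and their versions, further scaling and the use of strand in counting are not given in the sources used here. The columns named for wild type and knock-out were taken as Dnmt1+/+ and Dnmt1-/-. RPKM carries no counts, so no interval or detection limit was computed. The table holds no read totals, and those stated by the study were not used here.

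Entries with status OK, a symbol and at least 1 RPKM in one library were kept, and the change is the difference of log2(RPKM + 0.1). No p-value was computed. Members, gene lists and rules were chosen with earlier results of these data known. Named genes are all members, the 6 other G alpha genes, listed genes past 2-fold (at most 6 per list) with each list's most abundant gene, the neighbours of Gnai1, the 5 entries nearest to it, and checks of the libraries. Sema3b, Sema3c, Phtf2, Gnb2, Pde4a, Trp53, Gapdh and entries sharing a member's locus were named after their values were seen. So were some fibroblast, neuron, blood cell and epithelial markers. Coding ends and 50-base stretches came from GENCODE transcripts on NCBIM37, coding sequences being aligned with Biopython 1.88, and promoter windows came from RefSeq. Python 3.11.15, numpy 2.4.6, pandas 2.3.3 and matplotlib 3.10.9 were used. The log2 change and the 2-fold counts were checked on Dnmt1+/+ values with known changes put in, and the other steps were not checked in this way. Alternatives covered the pseudocount, the RPKM minimum, the status, the fold limit, centring and the pool of genes summed.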

Additional observations from a re-analysis of the deposited data

How the results depend on the processing

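Gna11 changed sign with the median subtracted, from -0.14 to 0.0029, both close to 0. No G alpha gene was more than 2-fold higher under any of them. The log2 change of Gnai1 was -5.93 with a pseudocount of 1, -10.54 with 0.01, -10.94 with none, and -8.74 with the median change subtracted. The number of G alpha genes more than 2-fold lower was 1 (Gnai1 alone) with a pseudocount of 1, with a minimum mean RPKM of 1 and with the median subtracted. The shares of all entries lower in these settings were 7.12%, 9.89% and 8.58%. The number was 3 of 10 kept without a minimum, where Gnaz entered, beside 11.1% of all entries. At a limit of 1.5-fold it was 3 of 9 kept, where Gnao1 entered, beside 23.7% of all entries. The median change of the G alpha genes was -0.22 without a minimum, -0.19 with a minimum mean, and -0.063 with the median subtracted. For the pathway lists without a minimum, 17 of 103 genes were lower and 11 higher, beside 11.1% and 9.92% of all entries. At 1.5-fold, 20 of 66 were lower and 13 higher, beside 23.7% and 14.1% of all entries. With the median subtracted, 10 of 66 were lower and 8 higher, beside 8.58% and 9.71% of all entries. The Gnai1 share was 14.7% and then 0.0108% of the sum with Gnao1 and Gnaz added, and 12.1% and then 0.00837% of all 10 genes. Of 47 recomputed values, 29 stayed close to those reported. No paired analysis was possible because each genotype has 1 library. With 1 library per genotype the spread between cultures is not known, and with 1 line per genotype, genotype and cell line cannot be told apart.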
